A study of Mus musculus with 9 samples.

Results

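A set of 10 genes that mark macrophages or monocytes were followed in lung cells enriched for CD103+ dendritic cells, before and after a period in culture. The genes were Car4, Chil3, Ear2, Cd14, Lyz2, Adgre1, Ms4a7, Ly6c2, Apoe and Spp1, taken by their symbols as 10 of the 45535 rows of the expression table that carry a gene symbol. All 10 passed the filter on low values (a mean of 10 or more over the 9 samples) and were among the 18202 genes tested. A normalized count is the number of reads of a gene divided by a factor that corrects for the depth of the sample. All mice were C57/BL6j and all had been given bleomycin, which injures the lung and leaves it fibrotic, for 7 days. Lungs were digested with collagenase, and cells carrying CD103 were collected on magnetic beads. The 5 samples called before culture went straight to RNA, and the 4 called after culture first spent 18 h in RPMI with serum and antibiotics. The extraction note speaks of total lung RNA, while the design text and the cell type label name the isolated cells, and the sources used here do not settle which was extracted. The age of the mice and the number of mice behind a sample are not given in the sources used here, so the p-values measure the spread between these samples, which may be technical.

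Macrophages of the lung fall into alveolar macrophages, which live in the airspace and clear surfactant, and interstitial macrophages, which live in the tissue around it. Monocytes arrive from the blood after injury and become macrophages, and in fibrotic lungs such cells are known for expressing lipid-handling and matrix genes such as Apoe and Spp1. Dendritic cells share part of this myeloid program, and several of the 10 genes are also read in other lung cells, for example Car4 in capillary endothelium and Lyz2 in alveolar type 2 cells. A bulk RNA sample does not say which cell a read came from.

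Itgae, which encodes CD103, was read in every sample, with a mean ± SD of 18138 ± 1537 in the 5 fresh samples and 1727 ± 335 in the 4 cultured ones. Of 10 genes that mark type 1 conventional dendritic cells, 9 were lower and Batf3 was higher after culture. Among all tested genes 34.6% were lower and 34.2% higher by the threshold given below. Depth in rows with a symbol ran from 14.7 to 28.8 M reads before and from 26.0 to 35.3 M reads after culture, and a single read counted for 0.758 to 1.79 on the normalized scale. Rows with no symbol held 3.87% to 10.9% of the reads and were left out.

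After culture 4 of the 10 genes were lower (Car4, Cd14, Ear2 and Chil3), 2 were higher (Ms4a7 and Lyz2) and 4 did not pass the threshold (Apoe, Adgre1, Ly6c2 and Spp1). The threshold was an adjusted p of 0.05 in limma over all tested genes. Among all tested genes 68.8% passed it, 34.6% lower and 34.2% higher, so 6 of 10 is close to the background. Values of the groups did not overlap for the same 6 genes, against 57.3% of all tested genes. The median log2 fold change of the 10 genes was −0.55, and that of all tested genes was 0.0065. The members spread widely around their median, from −5.96 for Car4 to 1.73 for Ms4a7. Higher and lower are relative to the scaling of the samples, and a median near 0 over all tested genes can follow from that scaling alone.

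**Figure D1:**
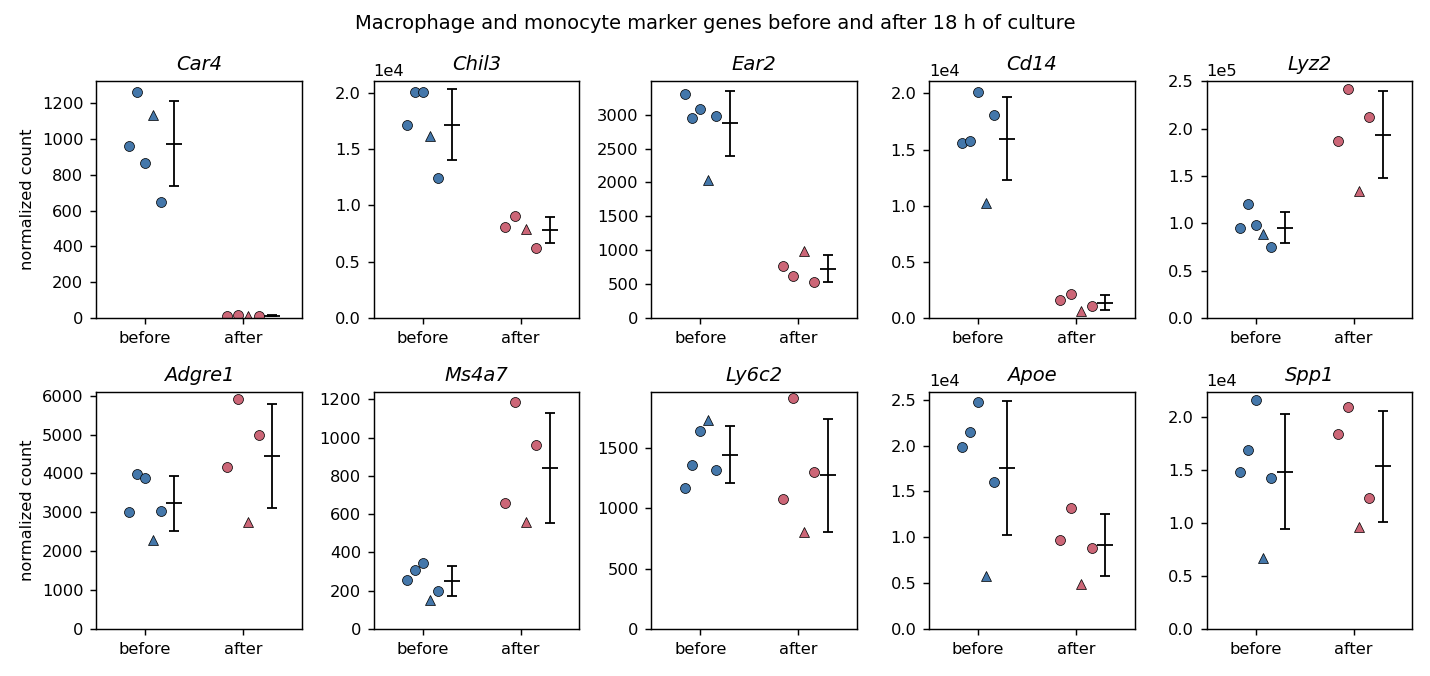
Normalized count (linear axis from 0) of the 10 genes in each of the 5 samples before (blue) and 4 samples after culture (red), with the group mean and SD at the right of each group. Triangles mark before replicate 4 and after replicate 3, which hold the lowest Cd14, Adgre1, Ms4a7, Apoe and Spp1 values of their groups.

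Alveolar macrophage genes came first. Car4 encodes a carbonic anhydrase anchored on the cell surface, found on alveolar macrophages and on a class of lung capillary endothelial cells called aerocytes. On chromosome 11 (84957786 to 84966044, plus strand, GRCm38), its normalized count was 959.8, 1259.7, 863, 1132 and 649.8 in before replicates 1 to 5 and 14.1, 16.7, 14.6 and 12.2 in after replicates 1 to 4. Every sample before culture lay far above every sample after culture. The mean went from 973 ± 237 to 14.4 ± 1.85 (SD), which is 67.6-fold lower, and the fitted change was −5.96 in log2 units with an SE of 0.183 (limma adjusted p = 1.36e-11). Only 0.242% of all tested genes had a larger change in either direction. In bulk RNA, fewer cells of a type and less RNA per cell cannot be told apart.

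Endothelial genes were lower after culture too. All 8 genes of a list of endothelial markers fell. Among all tested genes 34.6% were lower, a share that also stands behind the aerocyte count below. The summed normalized count of the 8 went from between 25500 and 36856 before to between 2793 and 3744 after culture, with no marker at 0. Plvap, an endothelial gene of fenestrae and caveolae, went from 3392 ± 682 to 56.0 ± 17.0 and was 1 of the 2 genes whose profile over the 9 samples lay nearest to that of Car4 (root mean square difference 0.318 on the log2 scale). The other was Wfdc1 (0.248). Such a distance depends largely on the size of the change, which was −5.92 for Plvap and −6.07 for Wfdc1. It does not show that the genes were read in the same cells. Of 6 aerocyte markers, 4 fell, among them Tbx2 (641 ± 151 against 49.5 ± 11.5). Ednrb, the endothelin receptor that defines aerocytes, was at 458 ± 139 against 416 ± 119.9 and did not pass the threshold (limma adjusted p = 0.654), nor did Apln, the gene of the peptide apelin (114 ± 59.8 against 86.0 ± 29.3). The part of endothelial cells in the fall of Car4 was not tested.

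The other carbonic anhydrases on the list went in both directions. Car13, a cytosolic form, rose from 159.6 ± 17.6 to 1126 ± 183 and Car2 from 368 ± 34.7 to 917 ± 62.7. Car12, on the cell surface, was low in both groups and fell from 30.0 ± 5.25 to 18.4 ± 7.59 with overlapping groups. Car3, a cytosolic form, was below the filter and not tested, at a mean of 12.7 before and 1.75 after culture with no overlap. Car5b, a mitochondrial form, did not pass the threshold (264 ± 23.1 against 295 ± 25.2).

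Ear2 encodes a secreted ribonuclease of the eosinophil-associated family that alveolar macrophages also make. The gene lies on chromosome 14 (44102654 to 44103534, plus strand). It was at 3297, 2945, 3089, 2038 and 2979 before and at 776, 619, 984 and 539 after culture. All 5 samples before culture lay above all 4 samples after culture, and before replicate 4 was the lowest of its group. The mean was 3.93-fold lower after culture (2870 ± 485 against 729.6 ± 196), with a fitted change of −1.99 in log2 units and an SE of 0.169 (limma adjusted p = 2.10e-07). Its family members Ear1 (193 ± 25.7 against 98.0 ± 34.5) and Rnase2a (17.8 ± 9.63 against 3.79 ± 2.97) fell too, Rnase2a with overlapping groups. Ear6 did not pass the threshold, and Ear10 and Ear14 were at or near 0 reads throughout. Reads may be split among Ear copies: cut into 50-base windows, the longest Ear2 transcript shares 41.5% of them, and that of Ear1 57.4%, with transcripts of other genes. The 250 bases upstream of Ear2 and Ear1 in RefSeq are 98.4% identical.

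Chil3 encodes a chitinase-like protein without chitin-cleaving activity, abundant in alveolar macrophages and also made by monocytes. Its locus is on chromosome 3 (106147554 to 106167564, minus strand). It was at 17096, 20062, 20048, 16121 and 12462 before and at 8121, 9020, 7869 and 6261 after culture. The groups did not overlap, and the lowest sample of each group was before replicate 5 and after replicate 4. The mean was 2.19-fold lower (17158 ± 3159 against 7818 ± 1149), with a fitted change of −1.13 in log2 units and an SE of 0.140 (limma adjusted p = 9.20e-06). Its near copy Chil4, with which Chil3 shares most of the 29.4% of its windows found elsewhere, was at a mean of 1.10 before and 0.190 after culture. Chia1, an active acidic chitinase, was at 25.6 ± 17.6 before and 7.35 ± 6.95 after culture and passed the threshold as lower with overlapping groups. Chil5 did not pass it (limma adjusted p = 0.0792).

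Next came genes of monocytes and of the common myeloid program. Cd14 encodes the co-receptor that hands bacterial lipopolysaccharide (LPS) to the receptor TLR4 and its partner MD-2. It was at 15609.7, 15784, 20118, 10201 and 18079 before and at 1589, 2195, 639.6 and 1057 after culture. The lowest sample before culture was still above the highest one after culture. The mean was 11.6-fold lower (15958 ± 3711 against 1370.1 ± 673), with a fitted change of −3.65 in log2 units and an SE of 0.288 (limma adjusted p = 1.00e-07). Cd93, a C-type lectin-like receptor of myeloid and endothelial cells, was at 7366 ± 1289 and 7566 ± 2512 and did not pass the threshold. Neutrophils also carry CD14, and all 9 tested genes of a neutrophil list fell, against 34.6% of all tested genes. The sum of the list went from between 14470.0 and 25235 to between 944 and 1927. The part of neutrophils in the fall of Cd14 was not tested.

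Genes that act with CD14 were counted next. Of 13 genes of the LPS receptor pathway, 6 were higher and 4 lower, with a median log2 fold change of 0.0091, which is close to the background of 34.2% higher and 34.6% lower among all tested genes. Tlr4 rose from 962 ± 74.3 to 2205 ± 625, and Ly96, which encodes MD-2, rose from 90.4 ± 22.9 to 378 ± 57.5. Tirap, Ticam1, Irak4 and Traf6, which encode adaptors, a kinase and a ubiquitin ligase of the pathway, were the other 4 that rose. For Ticam1 the groups overlapped. Those that fell were Lbp, the soluble LPS carrier (318 ± 47.3 against 22.3 ± 3.74), the receptor gene Tlr2 (9087 ± 609 against 3318 ± 882), the adaptor gene Myd88 (3729 ± 414 against 1475 ± 347) and Ly86, which encodes MD-1 (1435 ± 163 against 506 ± 121).

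Ly6c2 encodes a surface protein anchored by a lipid that is read as part of the Ly6C antigen of inflammatory monocytes and also of some T cells. It is found on chromosome 15 (75108158 to 75111970, minus strand). It was at 1168, 1357, 1635, 1733 and 1317 before and at 1079, 1908, 803 and 1295 after culture. The groups overlapped, since after replicate 2 was the highest and after replicate 3 the lowest of all 9 samples. The means were 1442 ± 234 and 1271 ± 470.1, with a log2 fold change of −0.24 (95% interval −0.66 to 0.19) that did not pass the threshold (limma adjusted p = 0.300). Without after replicate 2 it was −0.46 and passed (adjusted p = 0.0190). Over all 9 fits with a sample removed, its adjusted p lay between 0.0190 and 0.839.

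Its neighbour Ly6c1, also part of the Ly6C antigen and known from endothelium, moved apart from it. Ly6c1 fell from 2619 ± 546 to 62.1 ± 14.7, with a fitted change of −5.38 in log2 units and an SE of 0.171 (limma adjusted p = 1.75e-11). The log2 ratio of Ly6c2 to Ly6c1 within a sample was −0.85 ± 0.17 before and 4.29 ± 0.69 after culture, a shift of 5.15 with no overlap. These ratios were chosen after the values were seen. An exact two-sided permutation test gave p = 0.0159, the smallest this design allows, and an adjusted p of 0.0238 over the 30 ratios of a member to a tested relative. Of these 30 ratios, 20 had an adjusted p under 0.05 and 20 did not overlap, so such a shift is common among them. Apart from the 1 added to each value before the log, which matters for low genes, a ratio within a sample does not depend on how the samples are scaled to each other. Of the other family members, Ly6a (Sca-1) fell from 2857 ± 616 to 1001 ± 209, Ly6i was 6.92-fold higher and Ly6e fell from 23487 ± 997 to 17443 ± 5492 with overlapping groups. Ly6d did not pass the threshold. Ly6g, the neutrophil antigen, had 0 reads in all 4 samples after culture and a mean of 7.02 before. Of the windows of the longest transcript, 13.3% for Ly6c2 and 36.7% for Ly6c1 occur in other genes, in each case mostly the other copy.

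The upstream sequences of the pair are shown because the near copies changed so differently. They are the 250 bases 5′ of the start in RefSeq (GRCm38.p6), at chr15:75111972-75112221 on the minus strand for Ly6c2 and chr15:75048838-75049087 on the minus strand for Ly6c1. Lower case marks bases identical in a global alignment of both, and capitals mark bases that differ or have no partner.
Ly6c2: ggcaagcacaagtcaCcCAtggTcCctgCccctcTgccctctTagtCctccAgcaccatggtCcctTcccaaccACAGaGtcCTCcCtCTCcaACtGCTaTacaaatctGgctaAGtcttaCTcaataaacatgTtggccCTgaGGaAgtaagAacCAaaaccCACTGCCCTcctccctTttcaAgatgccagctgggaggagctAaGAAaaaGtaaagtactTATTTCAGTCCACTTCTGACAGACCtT
Ly6c1: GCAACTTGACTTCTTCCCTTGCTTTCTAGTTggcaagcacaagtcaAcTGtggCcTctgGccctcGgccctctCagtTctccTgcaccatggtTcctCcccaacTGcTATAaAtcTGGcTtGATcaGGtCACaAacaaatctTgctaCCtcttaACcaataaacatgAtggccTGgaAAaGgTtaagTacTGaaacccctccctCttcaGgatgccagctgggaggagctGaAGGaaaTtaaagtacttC
Of the 250 bases, 164 (65.6%) are identical. In the same kind of alignment the unrelated neighbours Apoe and Tomm40 reach 49.6%, the lowest share among the pairs aligned. Apoe and Apoc2 reach 54.4%, and Ly6c2 and Ly6g reach 55.6%. The letters GAGGAAG, a form of the motif of the myeloid factor PU.1, occur on either strand in 1 place in the Ly6c2 stretch and in 0 places in the Ly6c1 stretch. They also occur in 1 place upstream of Spp1 and in 0 places upstream of Car4, Chil3, Ear2, Lyz2, Ms4a7 and Apoe. Of 32851 such stretches in RefSeq, 10.6% hold them. The AP-1 letters TGANTCA occur in 0 of the 8 members with a RefSeq promoter entry and in 6.75% of all stretches. A match is a description of letters only.

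Lyz2 encodes lysozyme M, the bacterial wall-cleaving enzyme of macrophages, monocytes and neutrophils. The gene lies on chromosome 10 (117277331 to 117282321, minus strand). It was at 95286, 120716, 98297, 88855 and 74603 before and at 186476, 241708, 133695 and 212269 after culture. All 4 samples after culture lay above all 5 before culture, with after replicate 3 nearest to them. The mean was 2.03-fold higher after culture (95551 ± 16767 against 193537 ± 45834), with a fitted change of 1.00 in log2 units and an SE of 0.179 (limma adjusted p = 2.26e-04). Per kilobase of longest transcript, it was the 10th highest of 17537 genes before and the 3rd highest after culture. It took 0.370 ± 0.0634% of the normalized counts of named rows before and 0.758 ± 0.143% after culture. Without a filter on low values the adjusted p was 0.0633 at the same fold change.

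Markers of other cells that make lysozyme were also read. Beside the neutrophil list, all 8 alveolar type 2 markers were lower, against 34.6% of all tested genes. The sum of the 8 was 23086 to 43824 before and 6833 to 10474 after culture. The part of neutrophils and alveolar type 2 cells in the Lyz2 values was not tested. Lyz1, the neighbouring lysozyme P gene, was at 365 ± 87.8 before and 278 ± 35.3 after culture. It passed the threshold as lower with overlapping groups (log2 fold change −0.37, limma adjusted p = 0.0473). The log2 ratio of Lyz2 to Lyz1 shifted from 8.04 ± 0.38 to 9.41 ± 0.37 with no overlap (exact two-sided permutation test, p = 0.0159, adjusted p = 0.0238 over 30 ratios). Of the Lyz2 windows 15.4% are shared, mostly with Lyz1. The 250 bases upstream of both genes in RefSeq are 80.0% identical.

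**Figure D2:**
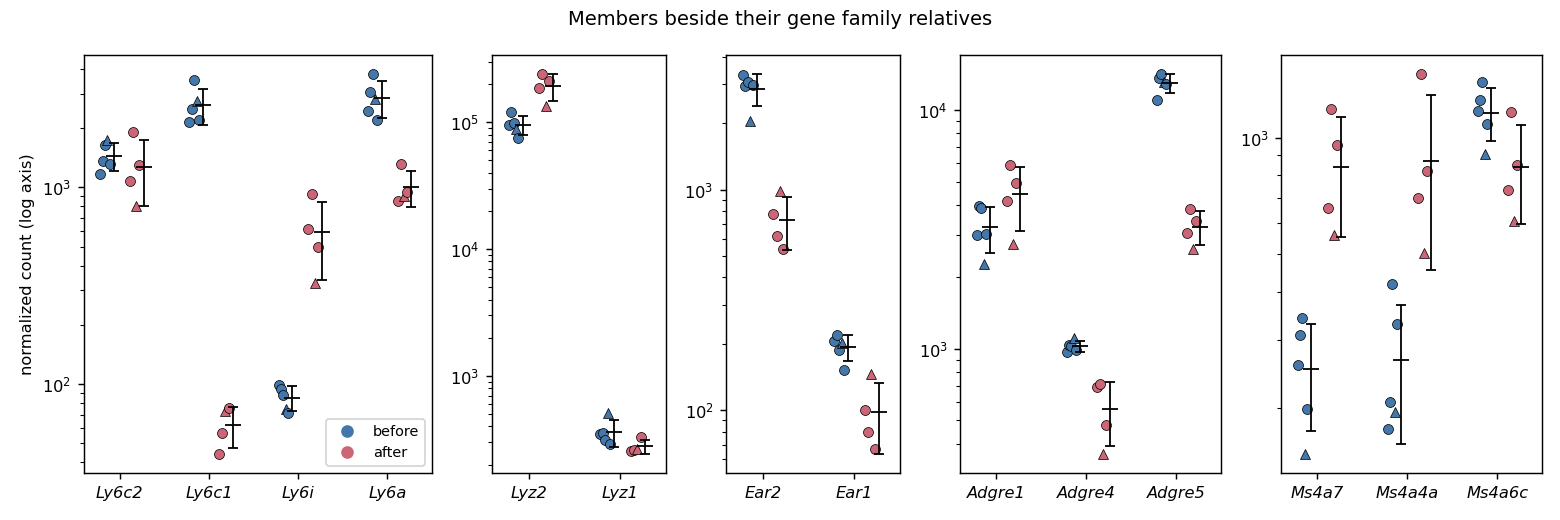
Normalized count (log axis) of Ly6c2, Lyz2, Ear2, Adgre1 and Ms4a7 beside relatives, with 1 point per sample before (blue) and after culture (red), the mean and SD beside them, and triangles for before replicate 4 and after replicate 3. Ly6c1 falls from about 2619 to 62.1 while Ly6c2 overlaps between groups, and Ms4a4a rises beside Ms4a7.

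Genes of mature tissue macrophages followed. Adgre1 encodes F4/80, the adhesion receptor used to stain mouse macrophages. Its locus is on chromosome 17 (57358691 to 57483527, plus strand). It was at 2995, 3982, 3886, 2277 and 3039 before and at 4152, 5918, 2749 and 4979.6 after culture. After replicates 1, 2 and 4 lay above every sample before culture, and after replicate 3 lay among them. The means were 3236 ± 706 and 4450 ± 1344, a log2 fold change of 0.43 (95% interval −0.0043 to 0.87) that did not pass the threshold (limma adjusted p = 0.0726). It passed without after replicate 3 (0.65, adjusted p = 0.00369) and without before replicate 2 (0.52, adjusted p = 0.0474). Its adjusted p reached 0.225 in the other fits with a sample removed.

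Both relatives of Adgre1 were lower. Adgre4, of the same family, went from 1023 ± 53.6 to 559.7 ± 167, and Adgre5, which encodes CD97, from 13002 ± 1233 to 3251 ± 530.5. The log2 ratio of Adgre1 to Adgre5 rose from −2.03 ± 0.30 to 0.41 ± 0.24, and that to Adgre4 from 1.63 ± 0.36 to 2.99 ± 0.32. Neither ratio overlapped between groups (exact two-sided permutation test, p = 0.0159 for each, adjusted p = 0.0238 over 30 ratios). The same held for 20 of the 30 ratios, and Adgre1 itself did not pass the threshold.

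Ms4a7 encodes a membrane protein with 4 passes through the membrane that marks macrophages derived from monocytes and interstitial macrophages. It is found on chromosome 19 (11321039 to 11336146, minus strand). It was at 258, 308, 342, 152 and 199 before and at 659, 1189, 560.5 and 959 after culture. Every sample after culture was above every sample before culture, and before replicate 4 and after replicate 3 were the lowest of their groups. The mean was 3.34-fold higher (252 ± 77.6 against 842 ± 287), with a fitted change of 1.73 in log2 units and an SE of 0.249 (limma adjusted p = 3.34e-05). Of its 9 tested relatives, 5 were higher and 2 lower, against 34.2% and 34.6% of all tested genes. Ms4a4a was nearest in size (266 ± 104 against 871 ± 415), and the log2 ratio of Ms4a7 to Ms4a4a moved by only 0.052 (exact two-sided permutation test, p = 0.905). Ms4a6d (1997 ± 428 against 3655 ± 1417), Ms4a6b, Ms4a4b and the B cell gene Ms4a1 rose with overlapping groups. With overlapping groups, Ms4a4c (667 ± 129 against 438 ± 122) and Ms4a6c (1161 ± 180.3 against 838 ± 239) fell. The tested genes with profiles nearest to Ms4a7 were Igf1, a growth factor gene (root mean square difference 0.185), and Ctsb, a lysosomal protease gene (0.222). Their log2 fold changes were 1.59 and 1.47, and such a distance depends largely on that size.

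The last members encode secreted proteins. Apoe encodes apolipoprotein E, which carries cholesterol out of macrophages and into cells through surface receptors. The gene lies on chromosome 7 (19696109 to 19699188, minus strand). It was at 19819, 21450.2, 24796, 5771 and 16056 before and at 9715, 13183, 4919 and 8805 after culture. Before replicate 4 lay far below the rest of its group and inside the range after culture, whereas the other 4 samples before culture lay above all samples after culture. The means were 17579 ± 7312 and 9156 ± 3396, a log2 fold change of −0.87 (SE 0.370, 95% interval −1.67 to −0.072) that did not pass the threshold (limma adjusted p = 0.0507). Without before replicate 4 it was −1.23 and passed (adjusted p = 4.44e-04), as it did without after replicate 2 (−1.07, adjusted p = 0.0249). The highest adjusted p with a sample removed was 0.159. The edgeR quasi-likelihood test on recovered reads also called it lower (−0.95, adjusted p = 0.0240), and the DESeq2 Wald test gave −0.94 (adjusted p = 0.0503).

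Partners of apolipoprotein E were counted in the same way. Of 10 receptor and lipid-loading genes, 4 were higher and 4 lower, with a median log2 fold change of 0.21, near the shares of all tested genes (34.2% and 34.6%). The receptor gene Lrp8 rose from 728 ± 63.6 to 2203 ± 119, and Abca1, which loads apolipoprotein E with cholesterol, from 6509 ± 1172 to 10853 ± 4458 with overlapping groups. The liver X receptor gene Nr1h3 was also higher, with overlapping groups. Scarb1, a receptor for high-density lipoprotein, fell from 4835 ± 534 to 1338 ± 222, and Vldlr was lower too. Nr1h2 and Sorl1 were lower with overlapping groups. Apoc1, in the same gene cluster, was at 16.1 ± 3.63 before and 2.62 ± 2.79 after culture and was lower. Apoc2 and Apoc4 were below the filter. All 6 genes of a fibroblast list fell (sum 13670 to 24171 before, 1987 to 3988 after culture), against 34.6% of all tested genes. The part of fibroblasts in the Apoe values was not tested.

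Spp1 encodes osteopontin, a secreted phosphoprotein that binds integrins and CD44 and marks macrophages of fibrotic lung. Its locus is on chromosome 5 (104435118 to 104441050, plus strand). It was at 14835, 16943, 21664, 6672 and 14254 before and at 18437, 20967, 9673 and 12405 after culture. The groups overlapped almost fully, and the lowest samples were again before replicate 4 and after replicate 3. The means were 14873 ± 5433 and 15371 ± 5228, a log2 fold change of 0.079 (SE 0.294, 95% interval −0.56 to 0.71, limma adjusted p = 0.826). Its sign changed when any of before replicate 4, after replicate 1 or after replicate 2 was left out, and the threshold was passed in none of the 9 such fits. Of the exon bases of Spp1, 18.8% lie under Gm42793 on the same strand, so reads there could be counted for either gene.

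The log2 ratio of Apoe to Spp1 fell by 0.95 with no overlap between groups (exact two-sided permutation test, p = 0.0159, adjusted p = 0.0193 over the 45 ratios of 2 members). Of 8 osteopontin receptor genes, 3 were higher and 3 lower, also near those shares of all tested genes (34.2% and 34.6%). The integrin genes Itga4 (9469.6 ± 911 against 23102 ± 2158), Itgb1 (8823 ± 705 against 14108 ± 731) and Itgav (3598 ± 199 against 4370.2 ± 521) rose, Itgav with overlapping groups. Cd44 (21701 ± 2071 against 17898 ± 1865) and Itgb3 fell with overlapping groups and Itga9 with no overlap, while Itga5 and Itgb5 did not pass the threshold.

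**Figure D3:**
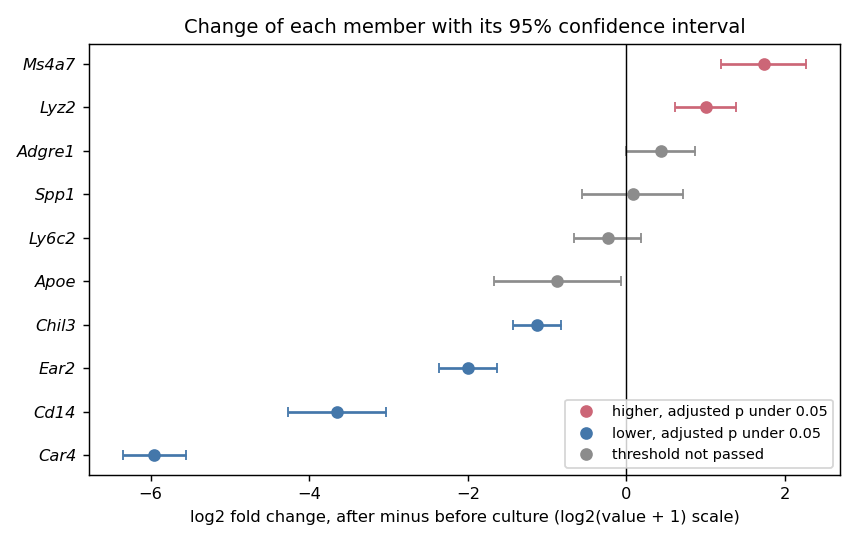
Log2 fold change after minus before culture (x axis, log2(value + 1) scale) of the 10 genes with its 95% confidence interval from limma, for 5 samples before and 4 after culture. Colours show the call, and the changes run from −5.96 for Car4 to 1.73 for Ms4a7.

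Ratios between members within a sample were also compared. Among all 45 ratios of 2 members, 38 shifted between groups at an adjusted p under 0.05 and 37 did not overlap. The ratios share genes, were chosen after the values were seen and were not set beside ratios of other genes, so the count says nothing particular to the members. The smallest p an exact permutation test of 5 against 4 samples allows is 0.0159. Within the alveolar macrophage genes, Car4 fell relative to Ear2 by 3.96 and Ear2 fell relative to Chil3 by 0.87 on the log2 scale, both with no overlap. Lyz2 rose relative to Ly6c2 by 1.24 with no overlap. Ratios that did not pass were those of Ly6c2 to Apoe, Spp1 and Chil3, of Chil3 and Ear2 to Apoe, and of Spp1 to Lyz2 and Adgre1.

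Levels were compared between members per kilobase of longest transcript. The longest transcript need not be the one expressed, and the order depends on it. It has 2680 bases for Ly6c2 but 844 for its near copy Ly6c1, so the Ly6c2 level may be understated. Before culture the order of means was Lyz2 (72607), Apoe (12485), Chil3 (11149), Spp1 (9869.6), Cd14 (9725), Ear2 (3991), Adgre1 (999), Car4 (774), Ly6c2 (538) and Ms4a7 (69.8). The SDs of Apoe (5193), Chil3 (2053), Spp1 (3605) and Cd14 (2262) were larger than the gaps between neighbours among these 4 genes, so their order is not resolved. The gap between Adgre1 and Car4 was close to their SDs of 218 and 188. After culture the order was Lyz2 (147065), Spp1 (10199), Apoe (6503), Chil3 (5079.7), Adgre1 (1374), Ear2 (1015), Cd14 (835), Ly6c2 (474), Ms4a7 (233) and Car4 (11.5). The gap between Spp1 and Apoe was larger than their SDs of 3469 and 2412. The gaps from Apoe to Chil3, from Adgre1 (SD 415) to Ear2 (SD 273) and from Ear2 to Cd14 (SD 410.3) were smaller than the larger SD of each pair. Those neighbours are not resolved. The gap from Cd14 to Ly6c2 was also smaller than the larger SD, but Cd14 lay above Ly6c2 on this scale within every sample after culture. Car4 went from rank 2058 to rank 14969 of 17537 genes, and Cd14 from rank 108 to rank 1828.

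Samples of the same group did not hold the members at the same level. Before replicate 4 had the lowest value of its group for 6 of the 10 genes (Ear2, Cd14, Adgre1, Ms4a7, Apoe and Spp1). After replicate 3 had the lowest for 7 (Cd14, Lyz2, Adgre1, Ms4a7, Ly6c2, Apoe and Spp1), and after replicate 2 had the highest for 9, all but Ear2. Apoe spread most, 4.30-fold from lowest to highest before culture. The summed interstitial macrophage list was lowest in the same samples. It was at 30286 in before replicate 4 against 46296 to 58644 in the rest, and at 26831 in after replicate 3 against 37768 to 57111. Lowest there too were the sums of the classical monocyte (57923 and 45537) and lipid-associated macrophage lists (61026 and 226938). The sums of the type 2 conventional dendritic cell (18566 and 14432) and neutrophil lists (14470 and 944) were lowest there as well. The alveolar macrophage list was lowest only in after replicate 3, and the nonclassical monocyte list only in before replicate 4. The alveolar type 2 list was highest in before replicate 4, at 43824 against 23086 to 28909.7, and in after replicate 3, at 10474 against 6833 to 7751. The natural killer (NK) cell list was also highest there, at 2335 against 1083 to 1314 before and 346 against 201 to 215 after culture. So was the T cell list, at 6878 against 5485 to 5885 before and 6423 against 4951 to 5693 after culture. The libraries of both samples carry the number 4 in their names.

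When both samples were left out, Apoe (−0.96, limma adjusted p = 6.05e-05) and Adgre1 (0.53, adjusted p = 0.00224) passed the threshold, 8 of the 10 genes in all. In that fit 12575 of all tested genes passed, against 12524 with all samples. The changes of Car4, Chil3, Ear2, Cd14, Lyz2 and Ms4a7 kept direction and call. Ly6c2 was then at 0.029 (adjusted p = 0.882) and Spp1 at 0.015 (adjusted p = 0.942). This setting was chosen after the values were seen.

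**Figure D4:**
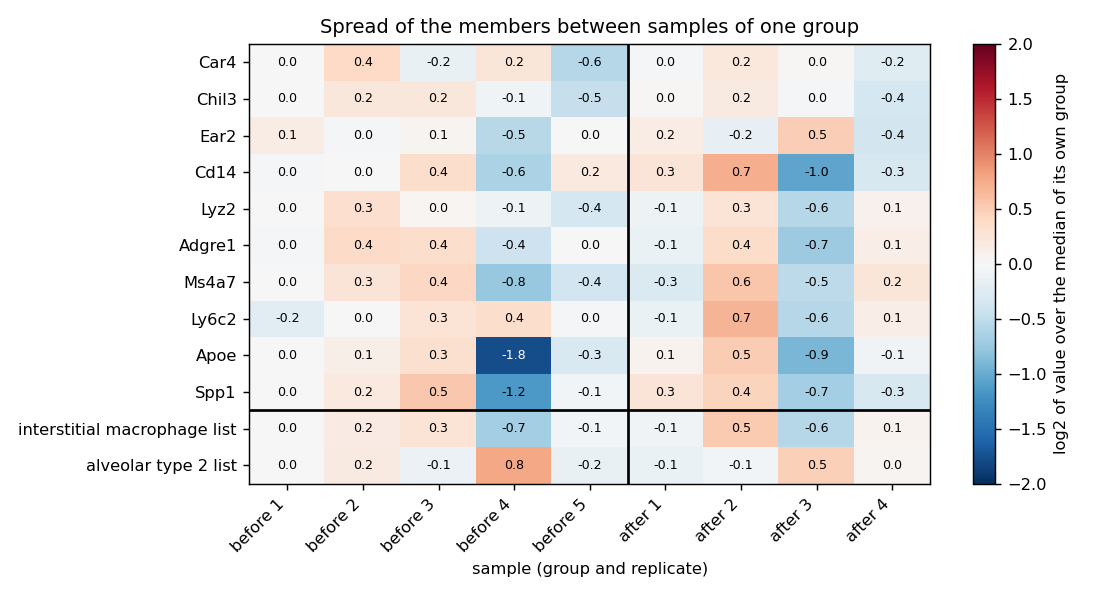
Log2 of each value over the median of its own group (colour and printed value) for the 10 genes and for the summed interstitial macrophage and alveolar type 2 lists, in the 9 samples. Before replicate 4 and after replicate 3 are low for Cd14, Adgre1, Ms4a7, Apoe and Spp1 and high for the alveolar type 2 list. The NK cell and T cell lists, also highest in both samples, are not drawn. Also not drawn are the classical monocyte, lipid-associated macrophage, type 2 conventional dendritic cell and neutrophil lists, which were lowest in both.

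Other markers of the same cell types were counted over whole lists, and only some of their genes are named. Of 14 tested alveolar macrophage genes, 7 were lower and 3 higher, with a median log2 fold change of −0.25, beside 34.6% lower and 34.2% higher among all tested genes, shares that also stand behind the counts of the next lists. Plet1, a surface protein gene, fell from 10549 ± 1649 to 1200.3 ± 382, Siglecf, which encodes the lectin used to sort these cells, from 667 ± 52.2 to 306 ± 65.2, and Cidec, a lipid droplet gene, from 149.7 ± 55.0 to 12.3 ± 10.9. The 3 that rose were Lpl, the lipoprotein lipase gene (8598 ± 1598 against 43636 ± 5834), the proton pump subunit gene Atp6v0d2 (1838 ± 463 against 6664 ± 204) and Fabp4, a fatty acid carrier gene (200.3 ± 22.7 against 731 ± 56.7). Marco, Pparg, Olr1 and Abcg1 did not pass the threshold.

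Of 12 classical monocyte genes, 5 were lower and 3 higher. Ccr2, the receptor that draws monocytes into tissue, fell from 10869 ± 468 to 1979.9 ± 157, and the interferon-induced gene family member Ifitm6 from 370.5 ± 53.6 to 13.3 ± 10.6. Vcan rose with overlapping groups, and Mgst1 and Emb rose with no overlap. Of 8 nonclassical monocyte genes, 6 were lower, and Treml4 and Eno3 did not pass the threshold (limma adjusted p = 0.851 and 0.316). Ace, which also marks capillary endothelium, fell from 16652 ± 2837 to 386 ± 30.1 and Cx3cr1, the fractalkine receptor gene, from 2525 ± 500.0 to 719 ± 98.8. Nr4a1 on this list is also an immediate early gene.

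Of 15 interstitial macrophage genes, 7 were lower and 4 higher, with a median of −0.75. The complement genes C1qa (4683 ± 1671 against 1861 ± 1013), C1qb and C1qc fell with overlapping groups, and Lyve1, Cd163, Ccl12 and Selenop fell with no overlap. Pf4, a chemokine gene, rose from 62.5 ± 30.6 to 579 ± 358, and Cd68, the gene of a lysosomal membrane protein, from 9503 ± 1626 to 17460.2 ± 4215. Maf and Mertk were the other 2 that rose, Maf with overlapping groups.

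Lipid-associated macrophage genes, which are often read together with Spp1 in fibrotic lung, were nearly all higher. Of 14 genes, 12 rose, against 34.2% of all tested genes, and the median log2 fold change was 1.54. The log2 fold changes of all 14 were above 0, from 0.36 to 4.67. Mmp12, the macrophage elastase gene, rose from 2412 ± 397 to 62246 ± 15411, and Gpnmb, a lysosome-linked glycoprotein gene, from 5549 ± 1525 to 84433 ± 24834. Fabp5 (1935 ± 311 against 11317 ± 2986), Cd63 (2124 ± 416 against 11509 ± 1258) and Trem2, a lipid receptor gene (1092 ± 297 against 2232 ± 619), were among the others. For Trem2 the groups overlapped. Mmp14 and Arg1 did not pass the threshold. Spp1 itself stayed within the spread of its groups.

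**Figure D5:**
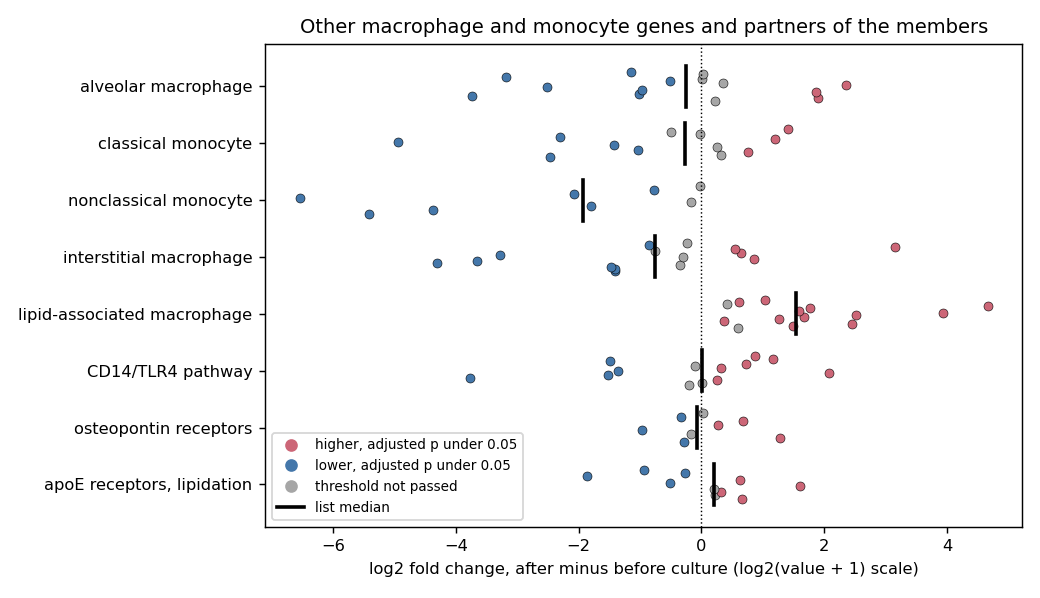
Log2 fold change after minus before culture (x axis) of every tested gene on 5 lists of macrophage and monocyte markers and 3 lists of partners of member proteins, coloured by call, with black bars for list medians. The lipid-associated list has 12 of 14 genes higher and a median of 1.54, and the nonclassical monocyte list has 6 of 8 lower and a median of −1.94.

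Transcription factors and growth factor receptors of the macrophage lineage had 5 of 15 genes higher and 6 lower, near the shares of all tested genes (34.2% and 34.6%). Klf4, a factor of monocyte differentiation, fell from 16113 ± 3741 to 822 ± 78.9 and Cebpb from 11333 ± 3719.5 to 2021 ± 892. Spi1, which encodes PU.1, was 1 of the lower genes with overlapping groups (9313 ± 1237 against 7348 ± 1058). Csf2rb, a subunit of the receptor for GM-CSF, rose from 27174 ± 1674 to 84288 ± 1493, while its partner subunit gene Csf2ra fell from 11213 ± 2219.9 to 5255 ± 810.4. Bhlhe41, a factor of alveolar macrophages, rose from 782 ± 152 to 3095 ± 216, and Csf1, the macrophage growth factor gene, from 1208 ± 419 to 3081 ± 368. Csf1r, its receptor gene, did not pass the threshold (11801 ± 2414 against 14883 ± 3908).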

How the data were processed

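Bulk RNA-seq values of 9 samples, 5 before and 4 after culture, were taken from the deposited table of 49317 rows. Its values are a signal per gene that the authors deposited as normalized counts. The submitters' processing notes name DESeq2 and GRCm38 with no role, and the aligner, counter, annotation and strand setting are not given in the sources used here. In every sample 100% of values were whole multiples of 1 step (largest deviation 1.16e-10 reads), so whole reads were recovered.

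Rows with no symbol (3782) were left out. Rows with a mean of at least 10 (18202) were tested with limma 3.58.1 in R 4.3.3 on log2(value + 1), two-sided, with group as the only term, a trend on the mean and Benjamini-Hochberg adjustment over all tested rows. Fold changes are on that scale, which understates changes of low genes, while "-fold" values are ratios of means. edgeR 4.0.16 and DESeq2 1.42.0 on recovered reads were alternatives, as were other scalings, filters, pseudocounts, sample weights, replicate blocks and leaving out samples. The fit was tested on simulated counts in which far fewer genes changed than passed here, so that test does not cover changes this widespread.

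Gene models came from GENCODE M21 (GRCm38) and matched 10 of 10 members. RefSeq promoters (GRCm38.p6) matched 8, not Adgre1 and Cd14. The genes and lists were chosen with earlier results of these data known. Relatives were described by fixed lists. From each other list the rule named up to 4 genes with the smallest adjusted p and those called against the list median, and other list genes given with values were chosen after their values were seen. A gene can stand on several lists. Results on some genes of the lists are not reported here.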

Additional observations from a re-analysis of the deposited data

Results flagged for a closer look

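Among 20 groups of values (10 genes in each of 2 groups of samples), the Ear2 value of before replicate 4, 2038, stood apart from the rest of its group. Its gap to the nearest sample was 0.720 of the range of the group, above the limit of 0.710 for 5 samples. Chance gives such a value in about 1 of 20 groups.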

How the results depend on the processing

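Car4, Chil3, Ear2, Cd14 and Ms4a7 kept direction and call in every alternative run. Lyz2 did in all but the fit with no filter on low values (1.00, adjusted p = 0.0633), which left 1 member higher. Adgre1 passed the threshold with array weights (0.40), DESeq2 (0.46), quantile normalization (0.43) and upper quartile scaling (0.54). Apoe passed with array weights (−1.07), edgeR (−0.95), a pseudocount of 8 (−0.87) and quantile normalization (−0.85). Spp1 turned to −0.061 with array weights. In the setting added after the values were seen, without both samples of library number 4, Adgre1 (0.53) and Apoe (−0.96) passed and Ly6c2 turned to 0.029. The cause was not tested.

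Leaving out each sample in turn gave 6 to 8 members past the threshold, 2 to 3 higher and 4 to 6 lower. All genes past the threshold then numbered 11770.0 to 12668, and those of the 5 macrophage and monocyte lists 47 to 51. The log2 fold changes ranged from 0.28 to 0.65 for Adgre1, −1.23 to −0.60 for Apoe, −0.46 to −0.041 for Ly6c2 and −0.19 to 0.28 for Spp1. They ranged from −6.09 to −5.85 for Car4, −3.92 to −3.33 for Cd14, −1.24 to −1.02 for Chil3, −2.15 to −1.86 for Ear2, 0.88 to 1.17 for Lyz2 and 1.55 to 1.91 for Ms4a7.

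Sample titles and library names number the samples after culture differently, and neither numbering is stated to pair samples. Deviations from the group mean correlated at 0.0807, 0.247, 0.349 and 0.0448 for pairs that share a library number and at 0.0807, 0.0797, −0.213 and −0.0403 for pairs that share a title number. By library number 7 of 8 samples correlated best with their own partner, a hint from the data and not from the design. With the library number as a replicate block, which drops before replicate 2, 8 members and 12859 genes passed. Adgre1 was then at 0.52 (limma adjusted p = 6.80e-05) and Apoe at −0.76 (adjusted p = 4.36e-05). With the title number as a block, which drops before replicate 5, 6 members and 11674 genes passed and no member changed its call.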
